A study of Mus musculus with 16 samples.

Results

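The effect of Rspo1 gain of function (GOF) on gene expression in the mouse adrenal gland was compared between males and females, gene by gene, as an interaction. The interaction is the log2 fold change of GOF against control in males minus that in females, so a positive value means that GOF raised a gene more, or lowered it less, in males. Its members were all autosomal genes that passed a filter on low counts, 17609 of the 50502 autosomal genes and of the 54838 genes in all in the deposited count table. They were chosen by chromosome and by count level, with no use of how they responded. RNA was sequenced from adrenals of 16 mice, all 4 weeks old and of mixed genetic background, with 1 library for each mouse. The 4 groups held 4 mice each: female control, female Rspo1 GOF, male control and male Rspo1 GOF. The design of the GOF allele, the promoter or cell type that drives it and any allele carried by the controls are not given in the sources used here. Each adrenal was sequenced whole, so fewer cells of a type and less RNA per cell cannot be told apart.

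R-spondin 1 is a secreted protein that binds receptors of the LGR family and takes the ubiquitin ligases ZNRF3 and RNF43 off the cell surface. Those ligases remove Frizzled receptors, and R-spondins therefore make cells more responsive to WNT ligands. In the adrenal cortex WNT signalling is strongest under the capsule, in the zona glomerulosa, which makes aldosterone, and weaker in the zona fasciculata, which makes glucocorticoids. The mouse cortex differs between the sexes: the innermost X-zone, a remnant of the fetal cortex, regresses at puberty in males and lasts longer in virgin females, and the female cortex renews its cells faster.

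Library totals ran from 31275146 to 43003968 counts. Xist matched the labelled sex in all 16 libraries, with 10846 Xist counts or more in every female and 23 or fewer in every male. A list of 9 steroidogenic genes that all cortical zones share summed to between 33957 and 52200 CPM (counts per 1000000 counts, scaled by library) in every library. Mitochondrial genes took 1.75% to 3.77% of the counts in GOF libraries and 3.55% to 5.33% in controls. A list of 14 liver genes summed to 10641 CPM in male control 2, to 363 to 1045 CPM in the other male controls and to 272 CPM or less elsewhere, and a list of 12 kidney tubule genes to 1453 CPM in female control 1, 239.9 CPM in female control 3 and 4.24 CPM or less elsewhere. The part of liver and kidney transcripts in the results was not tested by any model term. Counts are given below with and without 3 controls: male control 2, highest for the liver list, and female controls 1 and 3, highest for the kidney list. The controls kept without them still held liver transcripts, at 363 to 1045 CPM in males. In each sex Rspo1 itself was far higher in GOF: it stood at 40.5, 3.19, 9.72 and 5.87 CPM in the female controls and at 532, 507, 438 and 353 in female GOF. In males it stood at 24.7, 48.2, 19.4 and 29.6 CPM in controls and at 769, 941, 971 and 534 in GOF. No GOF library of either sex overlapped the controls, and every male GOF library was above every female GOF library. The interaction of Rspo1 was -0.22 ± 0.79 (SE), edgeR adjusted p = 0.907, and became -1.47 without female control 1, where Rspo1 was highest among the female controls.

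The GOF effect differed between the sexes at 731 of the 17609 autosomal genes (4.15%), tested with edgeR (quasi-likelihood, Benjamini-Hochberg adjustment) at a threshold of 0.05. Of these, 280 (1.59%) had a higher and 451 (2.56%) a lower effect in males, and 364 had an interaction of at least 1 in absolute log2 value, 181 of them higher and 183 lower. As a background, 39.5% of the same genes passed for GOF against control in females (19.1% higher, 20.3% lower) and 36.6% in males (15.2% higher, 21.4% lower). The median interaction over all 17609 genes was -0.06, and the split of calls moved with the settings. With the TMM factors used here 38.3% of the calls were higher, against 49.0% with RLE factors and 63.1% with upper-quartile factors, which moved that median to 0.05. With TMM factors the share was 54.1% with no filter, 61.3% without the 3 controls, and from 31.7% (without female GOF 1) to 53.3% (without male GOF 3) when 1 library was left out. Protein-coding genes made up 93.2% of the 731 and 83.2% of all genes tested, and the share called per autosome ran from 2.81% on chromosome 17 to 5.30% on chromosome 6.

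**Figure D1:**
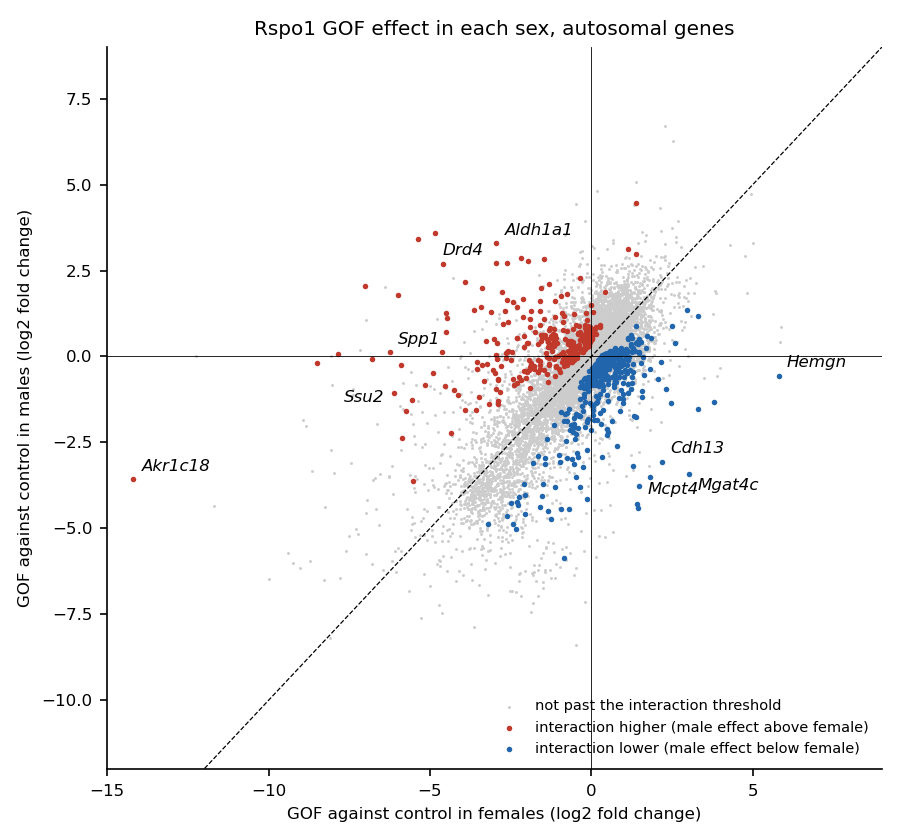
Each point is an autosomal gene, with the log2 fold change of GOF against control in females on the x axis and in males on the y axis; red points are the 280 genes with a higher and blue points the 451 with a lower effect in males, and grey points did not pass. The dashed line marks equal effects, red points lie above it and blue points below it, and Mgat4c lies in the area where the female effect is positive and the male effect negative.

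The 731 genes were then sorted by what they did in each sex. In 192 the GOF effect passed in both sexes, and in 105 of these it had opposite directions: 58 rose in females and fell in males, and 47 fell in females and rose in males. Of the 47, 1 gene (Olfr877) had 3 counts or fewer in every male library, so its rise in males is not measured. Another 343 passed in females and not in males, of which 145 fell and 198 rose, and 196 passed in males and not in females, of which 55 rose and 141 fell. On the linear CPM scale 7 of the 731 had a difference of the opposite sign.

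The gene with the lowest interaction among those above the floor in every group was Mgat4c (ENSMUSG00000019888, chromosome 10, 101681487 to 102391469, protein-coding; positions are on GRCm38, from GENCODE M21), which encodes an enzyme of the N-glycan branching family. In females Mgat4c stood at 26.4, 99.3, 73.3 and 40.6 CPM in controls and at 273, 694, 612 and 356 in GOF. In males it stood at 15.3, 18.0, 20.1 and 14.8 CPM in controls and at 0.980, 2.26, 0.826 and 2.41 in GOF. The groups did not overlap in either sex, and every female library was above every male library of the same genotype. GOF raised Mgat4c by 3.02 ± 0.42 on the log2 scale in females and lowered it in males, at -3.41 ± 0.48 (SE), an interaction of -6.43 ± 0.64 with an edgeR adjusted p of 0.00019.

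Cdh13 (chromosome 8, 118283733 to 119324921), which encodes T-cadherin, a cadherin anchored to the membrane by a lipid, moved the same way. Its levels were 6.43, 8.84, 5.597 and 8.80 CPM in female controls and 43.6, 27.9, 40.04 and 22.1 in female GOF. In males they were 7.35, 11.0, 18.5 and 13.2 CPM in controls and 1.77, 1.51, 1.28 and 1.42 in GOF. Control levels of Cdh13 overlapped between the sexes, whereas the GOF levels of females and males stood far apart. The log2 fold change was 2.17 ± 0.27 in females and -3.06 ± 0.29 in males, and the interaction was -5.23 ± 0.40 (SE), edgeR adjusted p = 1.19e-05. Per3 (chromosome 4, 151003652 to 151044665), a gene of the circadian clock, showed a smaller difference with little spread. Per3 stood at 22.5, 21.8, 14.7 and 21.1 CPM in female controls and at 43.1, 37.5, 38.3 and 42.5 in female GOF. Male controls held 28.1, 24.4, 27.5 and 24.7 CPM of Per3 and male GOF 20.97, 16.2, 15.1 and 16.6. The groups did not overlap in either sex, and the interaction of Per3 was -1.61 ± 0.18 (SE), edgeR adjusted p = 0.000425.

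Among other genes that rose in females and fell in males were Kcnb2, which encodes a voltage-gated potassium channel (interaction -3.12), and Peg10, an imprinted gene derived from a retrotransposon. Peg10 (chromosome 6, 4747306 to 4760517) stood at 521, 546, 414 and 491 CPM in female controls and at 898, 792, 1038 and 786 in female GOF. Male controls had 469, 529, 527 and 543 CPM of Peg10 and male GOF 303, 464, 355 and 255. Female GOF was above every control and male GOF below every male control, and the interaction of Peg10 was -1.42 ± 0.22 (SE), edgeR adjusted p = 0.00303. Mgat4c, Cdh13, Per3, Kcnb2 and Peg10 passed in all 16 fits that left out 1 library.

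The opposite pattern, a fall in females and a rise in males, was led by a pair of neighbouring aldehyde dehydrogenase genes on chromosome 19. Aldh1a1 (20492715 to 20643465) makes retinoic acid from retinaldehyde, and Aldh1a7 (20692953 to 20727562) is a close copy of it, so reads could be split between them. Aldh1a1 stood at 91.8, 121, 54.5 and 104 CPM in female controls and at 13.1, 14.5, 7.67 and 12.7 in female GOF. In males Aldh1a1 stood at 43.3, 61.8, 58.2 and 107 CPM in controls and at 1178, 28.1, 548.9 and 885 in GOF. Male GOF 2 was thus below every male control, while the other 3 male GOF libraries were above every other library of the study. Aldh1a7 had the same shape, with 132, 2.48, 75.6 and 135 CPM in male GOF against 11.4, 15.8, 23.6 and 36.6 in male controls, and with 0.876, 1.65, 1.19 and 1.14 in female GOF against 13.0, 9.90, 13.8 and 14.5 in female controls. The edgeR interaction was 6.23 ± 1.01 (SE) for Aldh1a1, adjusted p = 0.00455, and 5.36 ± 1.08 for Aldh1a7, adjusted p = 0.0139. Both passed in all 16 fits that left out 1 library, male GOF 2 included. Aldh1a7 was lost in the fits on FPKM, with quality weights per library and with the animal-number range as a covariate, where its value ran from 3.42 to 5.17, and Aldh1a1 in the unfiltered FPKM fit.

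Drd4 (chromosome 7, 141292006 to 141296464), which encodes a dopamine receptor, was a gene of the male adrenal that GOF raised further. Drd4 stood at 6.15, 5.26, 10.4 and 23.1 CPM in male controls and at 69.7, 32.0, 126 and 65.6 in male GOF. Female controls held 0.215, 0.967, 0.707 and 0.147 CPM of Drd4, and every female GOF library had 3 counts or fewer, the floor used here, so the fitted female change is no bound on its size. The male change was 2.71 ± 0.52 (SE) and the interaction passed with an edgeR adjusted p of 0.00993. Col6a1 (chromosome 10, 76708792 to 76726168), a chain of collagen VI, changed less but with separate groups. Its levels were 962, 972, 1167 and 1144 CPM in female controls, 584.4, 702, 738 and 724 in female GOF, 734, 631, 742 and 787 in male controls and 911, 917, 881 and 949 in male GOF. Control females and GOF males were high and the other groups low, with an interaction of 0.97 ± 0.14 (SE), edgeR adjusted p = 0.00168. Fam78a (interaction 4.40) and Bach2os (4.65) also fell in females and rose in males. Bach2os is annotated as antisense, and whether the counting used strand is not given in the sources used here, so its reads cannot be told apart from those of the gene on the other strand. Vmn2r14 and Gpc5 were also among the 47, at low levels: male means were at most 1.34 CPM, every male control of Gpc5 was at the floor, and Vmn2r14 belongs to a large family of similar genes.

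Of the 105 genes with opposite directions, the 47 that rose in males gave 44 to 47 interaction calls when 1 library was left out. Those that fell in males, 58 in all, gave 39 without male GOF 4 and 57 without male control 1. Without the 3 controls that held the most kidney or liver transcripts, 29 and 19 of them passed.

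**Figure D2:**
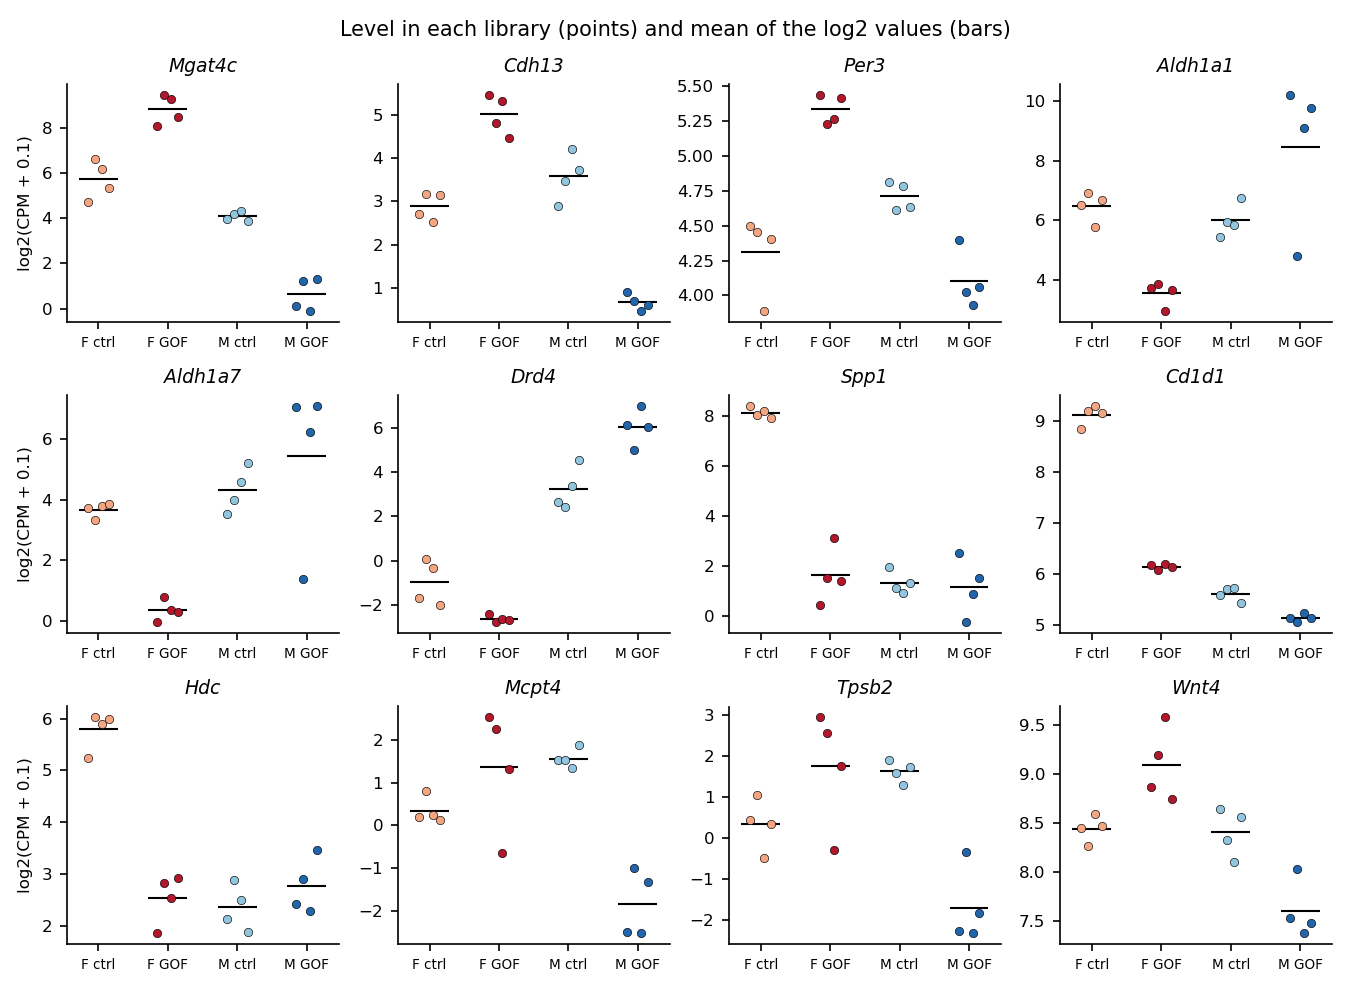
Each panel shows 1 gene as log2(CPM + 0.1) on the y axis, with a point for each library, in the order female control, female GOF, male control and male GOF; bars are means of the log2 values. Mgat4c, Cdh13 and Per3 are highest in female GOF and lowest in male GOF, Spp1, Cd1d1 and Hdc are highest in the female controls, and 1 male GOF library lies low for Aldh1a1 and Aldh1a7.

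Among the genes with a higher effect in males were genes of the female control adrenal that GOF lowered in females and that were already low in control males. The X-zone list held 3 genes. Akr1c18 (chromosome 13, 4132615 to 4150654), which breaks down progesterone and marks the X-zone, stood at 4548, 6807, 5824 and 4449.6 CPM in female controls. It stood at 0.117, 0.366, 0.477 and 0.171 CPM in female GOF, at 0, 1.75, 0.741 and 0.244 in male controls and at 0.0530, 0.0571, 0.0751 and 0.0302 in male GOF. Only the female controls were high, and male GOF was at the floor of 3 counts, so the fitted interaction is no measure of size. It passed with an edgeR adjusted p of 0.0292, in 10 of the 16 fits that left out 1 library. Reads of Akr1c18 could be split with its close relatives. Pik3c2g, a lipid kinase of the same zone, had a mean of 529.5 ± 49.8 CPM (SD, n = 4) in female controls and at most 0.487 in the other groups, with an adjusted p of 0.337.

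Thrb (chromosome 14, 17660261 to 18038090), the thyroid hormone receptor beta gene, was measured well above the floor in all groups. Thrb stood at 161, 187, 217 and 212 CPM in female controls and at 50.7, 73.2, 81.1 and 109 in female GOF. Male controls had 37.0, 37.9, 35.1 and 31.3 CPM of Thrb and male GOF 33.2, 29.8, 25.0 and 33.5. The female groups did not overlap while the male groups did, and female GOF stayed above every male library. The interaction of Thrb was 1.09 ± 0.25 (SE), edgeR adjusted p = 0.0263, and it passed in 11 of the 16 fits that left out 1 library, with values of 0.93 to 1.31. It was lost without female control 3 or 4, male control 3 or 4, or male GOF 4. Of the X-zone list, 2 of 3 genes were called higher with all libraries, 0 without female control 3 or without male GOF 4, and 1 without the 3 controls named above.

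Cd1d1 (chromosome 3, 86995834 to 86999441) had the smallest p of the interaction. It encodes a molecule that presents lipid antigens to natural killer T cells. Cd1d1 stood at 457, 583.4, 625 and 568 CPM in female controls and at 71.9, 67.4, 72.5 and 69.9 in female GOF. In males it stood at 47.7, 52.1, 52.9 and 43.1 CPM in controls and at 35.0, 33.0, 37.5 and 34.9 in GOF. It was lower in GOF in both sexes with no overlap, and the fall was larger in females: -2.99 ± 0.10 against -0.48 ± 0.09 (SE), an interaction of 2.51 ± 0.13 with an edgeR adjusted p of 8.4e-08. Spp1 (chromosome 5, 104435118 to 104441050) encodes osteopontin, a secreted phosphoprotein of bone and of activated macrophages. Spp1 stood at 339.9, 264, 297 and 248 CPM in female controls and between 0.742 and 8.59 CPM in all other libraries. Its interaction was 6.37 ± 0.80 (SE), edgeR adjusted p = 0.000808, and it was the only call among the 12 genes of the list for lipid-laden macrophages.

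Other genes of this shape were Ssu2, with a mean of 19.4 ± 4.05 CPM (SD, n = 4) in female controls and 0.477 or less elsewhere, and Cth, which encodes an enzyme of cysteine synthesis. Cth had 71.5 ± 8.36 CPM in female controls, 11.8 ± 2.48 in female GOF, 19.3 ± 6.08 in male controls and 20.996 ± 1.62 in male GOF (SD, n = 4). Lrrk2, a kinase linked to Parkinson disease, had 155.6 ± 12.8, 70.0 ± 5.86, 37.2 ± 5.71 and 45.5 ± 4.29 CPM in the same order, and its effect passed as a fall in females and as a rise in males. The interactions of Ssu2, Cth and Lrrk2 were 5.04, 2.72 and 1.44, with edgeR adjusted p of 0.000378, 0.000145 and 0.00022. Padi2, Gabrb1, Lypd6b and Paqr5 were likewise highest in female controls, with interactions of 4.29 to 5.21. Panx3 had 1.16 ± 0.427 CPM in female controls (SD, n = 4) and 3 counts or fewer in every other library. Car12, which had the highest fitted interaction above the floor (7.93), stood at 54.7 CPM in female control 1 and 8.76 in female control 3, the libraries with kidney transcripts, and at 1.54 CPM or less elsewhere. Its call was made in 3 of the 16 fits that left out 1 library, and without the 3 controls its value was 2.71.

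At other genes expression fell in males, while the effect in females did not pass. Cspg5 (chromosome 9, 110243783 to 110262576), a brain proteoglycan, stood at 27.9, 29.1, 27.99 and 31.6 CPM in female controls and at 25.6, 29.8, 35.1 and 33.2 in female GOF. Male controls had 24.1, 28.4, 23.3 and 26.6 CPM of Cspg5 and male GOF 7.15, 9.02, 6.18 and 5.91. The 4 male GOF libraries were below all others, which overlapped. The interaction of Cspg5 was -1.94 ± 0.18 (SE), edgeR adjusted p = 0.00011. Flrt2, an adhesion molecule, had 35.1 ± 4.07 CPM in male controls and 9.91 ± 1.64 in male GOF, against 29.2 ± 3.58 and 27.0 ± 4.06 in females (SD, n = 4), with an interaction of -1.71. Fam155a, a subunit of the sodium leak channel, had 18.3 ± 4.72 and 0.852 ± 0.212 CPM in males, against 15.6 ± 5.87 and 9.54 ± 4.47 in females, with an interaction of -3.72. Cspg5, Flrt2 and Fam155a passed in all 16 fits that left out 1 library. Lrrtm4, Mab21l1, Hs3st5 and Trim9, with means of at most 3.92 CPM in any group, also fell in males, with interactions of -3.44 to -4.01, and Mei4 was at the floor in male GOF against 1.01 ± 0.301 CPM (SD, n = 4) in male controls. Of these, Lrrtm4 passed in 8, Hs3st5 in 7 and Mab21l1 in 12 of those 16 fits, and Trim9 in 15.

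Lists of 405 genes in all, in 33 cell type and pathway lists, were then examined, of which 383 were tested. In the interaction 38 of these were called (9.92%), 11 higher and 27 lower, against 4.15% of all autosomal genes tested, 1.59% higher and 2.56% lower. At an unadjusted p under 0.05 stood 20.1% of all autosomal genes. The counts of each list below are to be read against these shares. The lists were chosen with earlier results of these data known, so they are given as counts and medians.

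**Figure D3:**
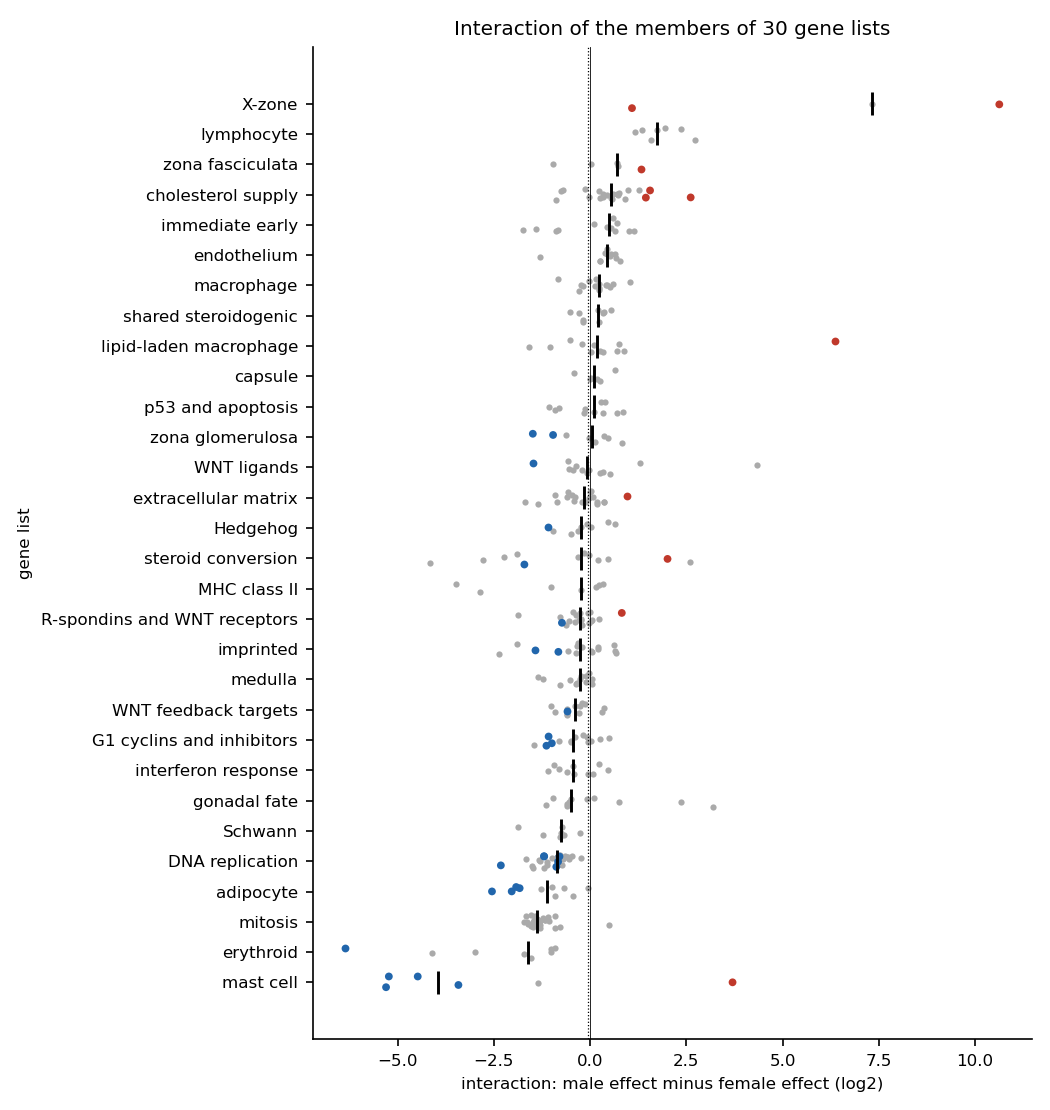
Each point is a member of a gene list, with its interaction (log2) on the x axis and the list on the y axis; red and blue points passed higher and lower, bars are list medians, and the dotted line is the median of all autosomal genes, at -0.06. Members of the mast cell, adipocyte and DNA replication lists passed mostly on the lower side, and the mitosis list lies at a median of -1.37 with no call. The liver, kidney tubule and skeletal muscle lists, at medians of -4.36, 6.25 and -2.75, are not drawn.

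Mast cells are tissue cells that store histamine and proteases in granules. Of the 6 genes of their list that were tested, 4 were called lower and 1 higher in the interaction, with a median of -3.95. All 4 called lower encode granule proteases: the tryptase Tpsb2, the chymases Mcpt4 and Cma1, and the carboxypeptidase Cpa3. Tpsb2 (chromosome 17, 25366305 to 25369098) stood at 1.27, 1.97, 0.615 and 1.17 CPM in female controls and at 7.65, 5.86, 0.716 and 3.31 in female GOF. In males Tpsb2 stood at 3.66, 2.89, 2.35 and 3.23 CPM in controls and at 0.106, 0.685, 0.1001 and 0.181 in GOF. The male groups did not overlap, and female GOF 3 lay among the female controls while the other 3 female GOF libraries were above them. Mcpt4 (chromosome 14, 56059629 to 56062313) had 1.05, 1.64, 1.08 and 0.997 CPM in female controls and 5.67, 4.64, 0.537 and 2.40 in female GOF. It stood at 2.77, 2.78, 2.44 and 3.56 CPM in male controls and at 0.0794, 0.400, 0.0751 and 0.302 in male GOF. For Mcpt4, male GOF was below all other libraries, and female GOF 3 was below the female controls.

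The interaction was -5.30 ± 0.94 (SE) for Tpsb2, adjusted p = 0.00623, -5.23 ± 0.85 for Mcpt4, adjusted p = 0.0041, -4.48 ± 0.81 for Cma1, adjusted p = 0.00698, and -3.42 ± 0.74 for Cpa3, adjusted p = 0.0191, all from edgeR. Each of the 4 fell in males, by 2.62 (Cpa3) to 3.75 (Mcpt4) on the log2 scale. In females Tpsb2 and Mcpt4 rose, by 1.80 and 1.47, while Cma1 (1.30, adjusted p = 0.0736) and Cpa3 (0.80, adjusted p = 0.219) did not pass. Tpsab1, a tryptase gene next to Tpsb2 and similar in sequence, was also lower (-5.86) and passed in 10 of the 16 fits that left out 1 library. Hdc, which makes histamine, went the other way. It stood at 37.7, 65.0, 59.5 and 63.6 CPM in female controls and between 3.53 and 11.0 CPM in all other libraries, with an interaction of 3.70 ± 0.44 (SE) and an adjusted p of 0.000476. Kit, the receptor for stem cell factor, had an interaction of -1.36 with an adjusted p of 0.068. The 4 protease calls were made in all 16 fits that left out 1 library, and none of them without the 3 controls named above, where the list median was -3.62.

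Promoter windows of the mast cell proteases are shown because these genes moved together and promoters of mast cell genes are known targets of GATA factors. RefSeq promoters (GRCm38.p6) were found for 12239 of the genes tested and 5 of the mast cell list. The 250 bases before each start were searched on both strands for the word AGATAA or the word AGATAG, or with a first T the word TGATAA or the word TGATAG, which can overlap. Such a word was in 4 of the 5, Cma1, Cpa3, Hdc and Mcpt4, and in 17.4% of all 12239 promoters. Of these 4 genes Hdc had moved the other way, Kit had no match, and no promoter of Tpsb2 was among the 5. Capitals below mark the matches, reading 5′ to 3′ on the gene's strand, which is minus for all 3 genes shown.
Cma1, chr14:55944676-55944795: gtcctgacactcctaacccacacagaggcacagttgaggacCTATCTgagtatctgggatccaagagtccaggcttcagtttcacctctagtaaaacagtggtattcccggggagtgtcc
Cpa3, chr3:20242182-20242301: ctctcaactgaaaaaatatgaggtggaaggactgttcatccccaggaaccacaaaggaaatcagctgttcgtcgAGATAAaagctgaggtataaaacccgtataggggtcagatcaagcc
Mcpt4, chr14:56062314-56062430: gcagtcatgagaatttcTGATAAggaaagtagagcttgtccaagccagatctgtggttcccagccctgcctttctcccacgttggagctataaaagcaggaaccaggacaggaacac
A match is a description of these letters and not of binding.

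Most genes of cell division rose with GOF in females, few passed in males, and the difference between the sexes passed for a part of them. The DNA replication list held 29 genes, from origin licensing to the replication fork. In females 28 of them rose with GOF, and in males 1 rose and 1 fell. All 29 had a fitted interaction below 0, with a median of -0.86, 25 at an unadjusted p under 0.05, and 6 were called lower: Ccne1, Cdt1, Lig1, Mcm4, Rrm1 and Mcm2. Of the 16 fits that left out 1 library, Ccne1 and Mcm4 passed in all, Mcm2 in 14, Lig1 in 11, Cdt1 in 5 and Rrm1 in 3. The summed CPM of the list ran from 516 to 751 in control females, 873 to 1691 in GOF females, 346 to 487 in male controls and 412.5 to 531 in male GOF. The female groups did not overlap, and the male groups did. For the mitosis list the summed level was 245 to 464, 393 to 1378, 55.1 to 307 and 132 to 317 CPM in the same order, and female GOF 1 lay among the female controls. Of its 30 genes 26 passed as higher in females and 0 passed in either direction in males. The mitosis list had a median interaction of -1.37 and 0 calls by edgeR, with 11 at an unadjusted p under 0.05, the smallest adjusted p being 0.149, and 0 calls by DESeq2, which called 13 of the replication list. Without male control 1, the library with the lowest mitosis sum, 2 mitosis genes passed, and this was the most when 1 library was left out.

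Mcm2 (chromosome 6, 88883474 to 88898780), a subunit of the replicative helicase, stood at 45.7, 57.0, 58.6 and 62.4 CPM in female controls and at 82.5, 113, 109 and 124 in female GOF. Male controls had 49.2, 47.0, 52.99 and 56.6 CPM of Mcm2 and male GOF 52.2, 65.2, 56.5 and 53.4. All 4 female GOF libraries were above the 12 others, which overlapped. Its interaction was -0.80 ± 0.17 (SE), edgeR adjusted p = 0.0198, and the call was lost without female GOF 4 or male GOF 4, with values of -0.90 to -0.70 over the 16 fits. Ccne1 (chromosome 7, 38097984 to 38107534), the cyclin E1 that starts replication, moved in both sexes. Ccne1 stood at 4.15, 7.06, 6.43 and 5.10 CPM in female controls, 5.75, 15.1, 10.8 and 13.0 in female GOF, 2.95, 4.50, 4.60 and 5.51 in male controls and 1.30, 1.80, 2.25 and 1.57 in male GOF. Male GOF was below all other libraries, and female GOF 1 lay among the female controls. Ccne1 rose in females by 0.98 ± 0.28 and fell in males, at -1.34 ± 0.29 (SE), with an interaction of -2.32 ± 0.41 and an adjusted p of 0.00605. Mki67, a proliferation marker of the mitosis list, stood at 26.6, 33.7, 30.8 and 36.4 CPM in female controls, 51.5, 166, 85.4 and 131 in female GOF, 2.98, 17.2, 34.6 and 20.3 in male controls and 10.9, 20.98, 37.5 and 19.4 in male GOF. Its interaction of -1.53 ± 0.76 (SE) had an edgeR adjusted p of 0.275.

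Among the 14 G1 cyclins and cell cycle inhibitors, 3 were called lower in the interaction: the cyclin gene Ccnd3, the pocket protein gene Rbl1 and the inhibitor gene Cdkn2c. Ccnd3 (chromosome 17, 47505051 to 47599691) stood at 289.6, 290.3, 356 and 318 CPM in female controls and at 714, 709.6, 699.6 and 861 in female GOF. Male controls had 237, 217, 224 and 243 CPM of Ccnd3 and male GOF 223, 335, 230.0 and 211. Female GOF was above all other libraries, with an interaction of -1.13 ± 0.18 (SE), edgeR adjusted p = 0.00387, which passed in all 16 fits that left out 1 library, while Rbl1 (-0.99) was lost without female GOF 4 and Cdkn2c (-1.08) passed in 4 of them. The number of calls in the replication list ran from 2 without female GOF 4 or without male GOF 4 to 17 without female GOF 1. Without the 3 controls named above it was 0 in the replication list, at a median of -0.78, and 1 among the G1 genes.

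**Figure D4:**
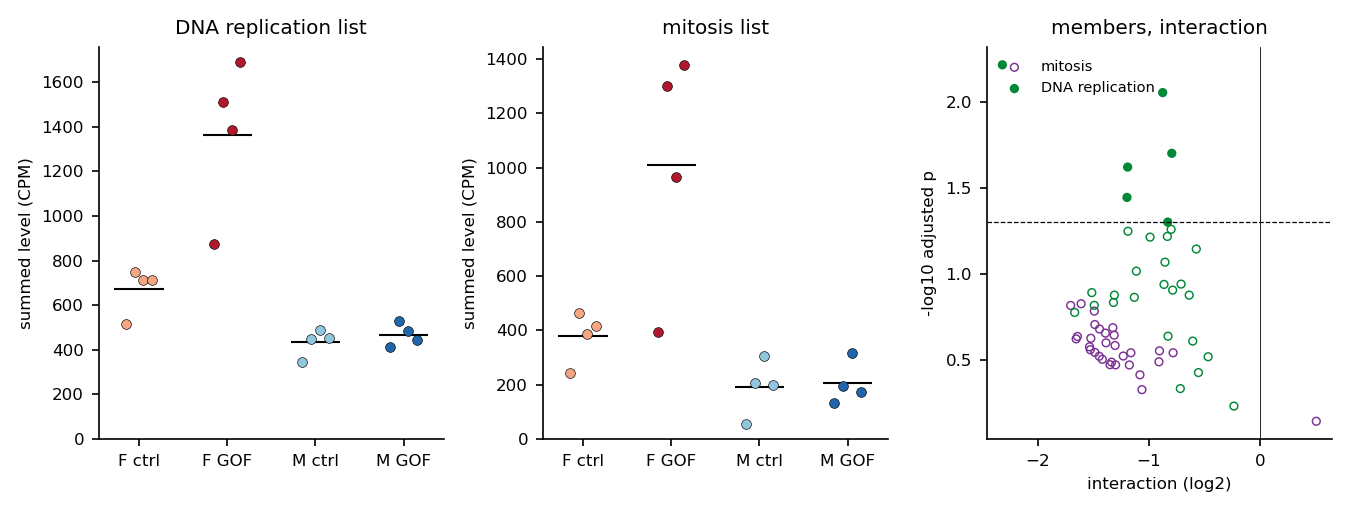
The left and middle panels show the summed CPM of the DNA replication and mitosis lists in each library (points) and group means (bars), and the right panel plots each member's interaction (log2) against -log10 of its adjusted p, with a dashed line at 0.05. Female GOF reaches 1691 CPM for replication and 1378 CPM for mitosis, 6 replication genes lie above the dashed line and no mitosis gene does.

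Promoters of the replication list were searched in the same way for E2F sites, since E2F factors are known to drive these genes at the start of S phase. The words were TTTGGCGC, TTTCCCGC, TTTGCCGC and TTTCGCGC on either strand, which can overlap each other. They were found in 6 of the 24 promoters of the list (25.0%) and in 3.12% of all 12239. The windows of 2 helicase genes are shown, Mcm5 on the plus strand and Mcm6 on the minus strand, with matches in capitals.
Mcm5, chr8:75109326-75109397: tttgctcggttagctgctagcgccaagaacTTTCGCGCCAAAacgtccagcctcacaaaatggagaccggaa
Mcm6, chr1:128359715-128359845: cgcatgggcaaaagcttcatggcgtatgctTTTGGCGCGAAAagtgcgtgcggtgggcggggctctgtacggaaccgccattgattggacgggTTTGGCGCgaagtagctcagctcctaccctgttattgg
Mcm5 rose in females by 1.28 and Mcm6 by 0.94 on the log2 scale, and their interactions of -1.19 and -0.79 had edgeR adjusted p of 0.0563 and 0.124.

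In the WNT pathway 1 ligand, 2 receptor genes and 1 feedback target were called in the interaction. Of 13 WNT ligand genes tested 1 was called, Wnt4 (chromosome 4, 137277489 to 137299726), a ligand of the zona glomerulosa. Wnt4 stood at 348, 307, 386 and 354 CPM in female controls and at 467, 587, 766 and 429 in female GOF. In males Wnt4 stood at 400.5, 320.4, 274 and 377 CPM in controls and at 184, 261, 166 and 178 in GOF. The control levels overlapped between the sexes, and GOF took the females above and the males below them without overlap. Wnt4 rose in females by 0.69 ± 0.18 and fell in males, at -0.80 ± 0.18 (SE), with an interaction of -1.49 ± 0.26 and an edgeR adjusted p of 0.00593, and it passed in all 16 fits that left out 1 library.

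Among 20 R-spondin and WNT receptor genes 1 was called higher and 1 lower. Lgr4, a receptor for R-spondins, stood at 384, 431, 378 and 337 CPM in female controls and at 227, 197, 214 and 192 in female GOF. Male controls had 174, 139, 143 and 124 CPM of Lgr4 and male GOF 130.5, 147, 139 and 140.4. Female controls were highest and female GOF came next, above all male libraries. The interaction of Lgr4 was 0.82 ± 0.14 (SE), edgeR adjusted p = 0.00523. The Frizzled receptor gene Fzd7 was lower, at -0.73, and passed in 3 of the 16 fits that left out 1 library. Of 13 WNT feedback targets 1 was called in the interaction, Tnfrsf19 (-0.60, passing in 3 of those fits), which rose in both sexes. Axin2 also rose in both, by 0.70 in females and 1.01 in males, with an interaction of 0.31 and an edgeR adjusted p of 0.27. More of the 13 passed as lower than as higher. In females 6 were lower and 4 higher with GOF, at a median of -0.95, and in males 8 and 3, at a median of -1.08. Rspo3, an R-spondin of the capsule, and Lgr5 fell in both sexes, with interactions of 0.01 and -0.40 and adjusted p of 0.989 and 0.663. Of 9 Hedgehog genes the transcription factor gene Gli3 was called lower (-1.08), with a rise in females (0.83) and a value of -0.25 in males that did not pass.

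The zona glomerulosa list of 8 genes gave 2 calls, both lower: Wnt4 and Dab2, an endocytic adaptor. Dab2 fell in males from 490.3 ± 37.6 to 216 ± 32.6 CPM and had 436 ± 46.0 and 374 ± 89.4 CPM in female controls and GOF (SD, n = 4), an interaction of -0.96, which was lost without female GOF 4, male GOF 1, male GOF 3 or male GOF 4. Cyp11b2, the aldosterone synthase gene, fell in both sexes, with an interaction of 0.83 ± 0.56 (SE) and an edgeR adjusted p of 0.42. Among 5 zona fasciculata genes 1 was called higher: Abcb1b, which encodes a drug and steroid exporter. Abcb1b stood at 3642, 4423, 4320.4 and 3244 CPM in female controls and at 1364, 1472, 1036 and 1300.5 in female GOF. Male controls had 4050.3, 2242, 2491 and 3724 CPM of Abcb1b and male GOF 2435, 2766, 1659 and 3580.5. The female groups were apart and the male groups overlapped, with an interaction of 1.33 ± 0.32 (SE) and an edgeR adjusted p of 0.0314, which passed in 9 of the 16 fits that left out 1 library. None of the 9 shared steroidogenic genes was called (0 also at an unadjusted p under 0.05, and 0 by DESeq2); the lowest adjusted p was 0.329.

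Of 12 steroid-converting enzymes tested, Srd5a2 was called lower and Hsd17b1 higher. Srd5a2, a steroid 5-alpha-reductase gene (chromosome 17, 74016955 to 74047916), stood at 119, 76.7, 108 and 132 CPM in female controls and at 296, 411, 322 and 222 in female GOF. In males Srd5a2 stood at 1404, 1042, 1623 and 1799 CPM in controls and at 1422, 1132, 946 and 1662 in GOF. It rose in females, yet every male library stayed above every female one, and the interaction was -1.71 ± 0.32 (SE), edgeR adjusted p = 0.00888. Hsd17b1, an enzyme that activates oestrone, stood at 5.71, 2.93, 1.999 and 3.64 CPM in female controls, 2.13, 1.90, 1.91 and 2.06 in female GOF, 1.17, 0.555, 0.618 and 0.978 in male controls and 1.35, 2.17, 1.98 and 2.02 in male GOF. The GOF levels of both sexes overlapped at about the same value, and the interaction was 2.01 ± 0.44 (SE) with an adjusted p of 0.0203. Both genes passed in all 16 fits that left out 1 library.

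Most genes of cholesterol synthesis and uptake, the supply of steroidogenesis, passed as lower in each sex. Of 22 genes 16 fell in females, at a median of -1.44, and 13 in males, at a median of -0.80; 3 were called higher in the interaction, whose median was 0.56. Tm7sf2, a sterol reductase, stood at 56.1, 72.1, 94.3 and 61.9 CPM in female controls and at 13.5, 12.7, 13.5 and 14.6 in female GOF. Male controls had 29.8, 40.4, 23.4 and 19.96 CPM of Tm7sf2 and male GOF 16.5, 16.8, 17.3 and 13.2. Female controls were above all other libraries and GOF levels overlapped between the sexes, with an interaction of 1.56 ± 0.28 (SE), edgeR adjusted p = 0.00608. Fdps, which makes farnesyl diphosphate, and Stard4, which carries cholesterol, were called at 2.61 and 1.45 and passed in 3 and 6 of the 16 fits that left out 1 library.

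Most fat cell genes fell in both sexes, and 4 of them fell further in males. Of 10 adipocyte genes 9 fell in females, at a median of -2.26, and 10 in males, at a median of -3.88; Adipoq, Cidec, Cfd and Retn were called lower in the interaction, whose median over the list was -1.13. The summed CPM of the list ran from 1890 to 2471 in control females, 481 to 959 in GOF females, 2444 to 5002 in male controls and 384 to 483 in male GOF. The liver and skeletal muscle lists moved the same way: all 14 liver and all 6 muscle genes tested had a fitted interaction below 0, at medians of -4.36 and -2.75. Without the 3 controls named above these medians were -1.70 and -0.16. Male controls held more of the liver list (363 to 10641 CPM) than female controls (176.5 to 272), and the muscle list stood at 88.3 CPM in male control 2 and at 2.48 to 5.48 elsewhere. Their part in the adipocyte result was not tested. Adipoq (chromosome 16, 23146536 to 23158028), which encodes adiponectin, stood at 183, 105, 109 and 158 CPM in female controls and at 22.9, 45.1, 26.9 and 17.5 in female GOF. Male controls had 205, 249, 360.1 and 223 CPM of Adipoq and male GOF 15.6, 9.76, 18.1 and 12.1. Male controls were highest, and GOF levels overlapped between the sexes. The interaction of Adipoq was -1.92 ± 0.41 (SE), edgeR adjusted p = 0.0191, and the call was lost without male GOF 4, where 0 of the 4 passed. Cidec was also lost without female control 3, and Cfd and Retn passed in 4 of the 16 fits each. Without the 3 controls named above 0 of the 4 passed either, at a list median of -1.29.

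Among 16 imprinted genes Peg10, described above, and Ndn were called lower. Ndn, which encodes necdin, fell in females (169 ± 11.2 CPM in controls, 75.8 ± 8.07 in GOF) and further in males (263 ± 30.3 and 66.8 ± 8.67; SD, n = 4), an interaction of -0.82 ± 0.15 (SE) with an edgeR adjusted p of 0.00722. Of 8 erythroid genes 4 rose in females and 2 fell in males. All 8 had a fitted interaction below 0, with a median of -1.62 and 5 at an unadjusted p under 0.05, and Hemgn, a nuclear protein of red cell precursors, was called (-6.36). It stood at 0.239 to 5.49 CPM in female GOF and at 0.309 CPM or less in all other libraries, and passed in 4 of the 16 fits that left out 1 library. In the liver list all 14 genes fell in males and 2 in females, and all 14 had a fitted interaction below 0, with a median of -4.36, or -1.70 without the 3 controls, and 3 at an unadjusted p under 0.05. It gave 1 call, Cyp2e1 (-2.70), at 180 to 761 CPM in male controls, 82.6 to 154 in female controls and 36.5 or less in GOF, which passed in 2 of those fits.

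No member was called in the lists for the capsule, the medulla, Schwann cells, macrophages, MHC class II, lymphocytes, endothelium, the interferon response, p53 and apoptosis, gonadal fate, immediate early genes, kidney tubule or skeletal muscle. By DESeq2 the gonadal fate, immediate early and endothelium lists had 1 call each and the kidney list 3, and the others had 0. At an unadjusted p under 0.05, where 20.1% of all autosomal genes stood, the p53 list held 6 of 11 genes, the endothelium list 4 of 11, the gonadal fate list 2 of 11, the Schwann cell list 2 of 7, the kidney list 2 of 3, the capsule list 1 of 6, the immediate early list 1 of 12, the muscle list 1 of 6, and the interferon and MHC class II lists 0. In the medulla list all 13 genes fell in both sexes, at medians of -3.75 in females and -4.09 in males, while the interaction had a median of -0.27 and 1 gene at an unadjusted p under 0.05. In the macrophage list 2 genes rose in females and 7 in males, with 0 interaction calls, 0 at an unadjusted p under 0.05 and 0 by DESeq2. Male GOF 1 stood apart, at a summed 1884 CPM against 688 to 807 in the other male GOF libraries, and at 2038 CPM against 606 to 694 for the lipid-laden macrophage list. The 7 lymphocyte genes had a median interaction of 1.73 with 0 calls by edgeR and 0 at an unadjusted p under 0.05. Their summed level reached 52.9 CPM in male GOF 2, against a male GOF median of 8.23 and at most 7.48 CPM in the other groups.

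**Figure D5:**
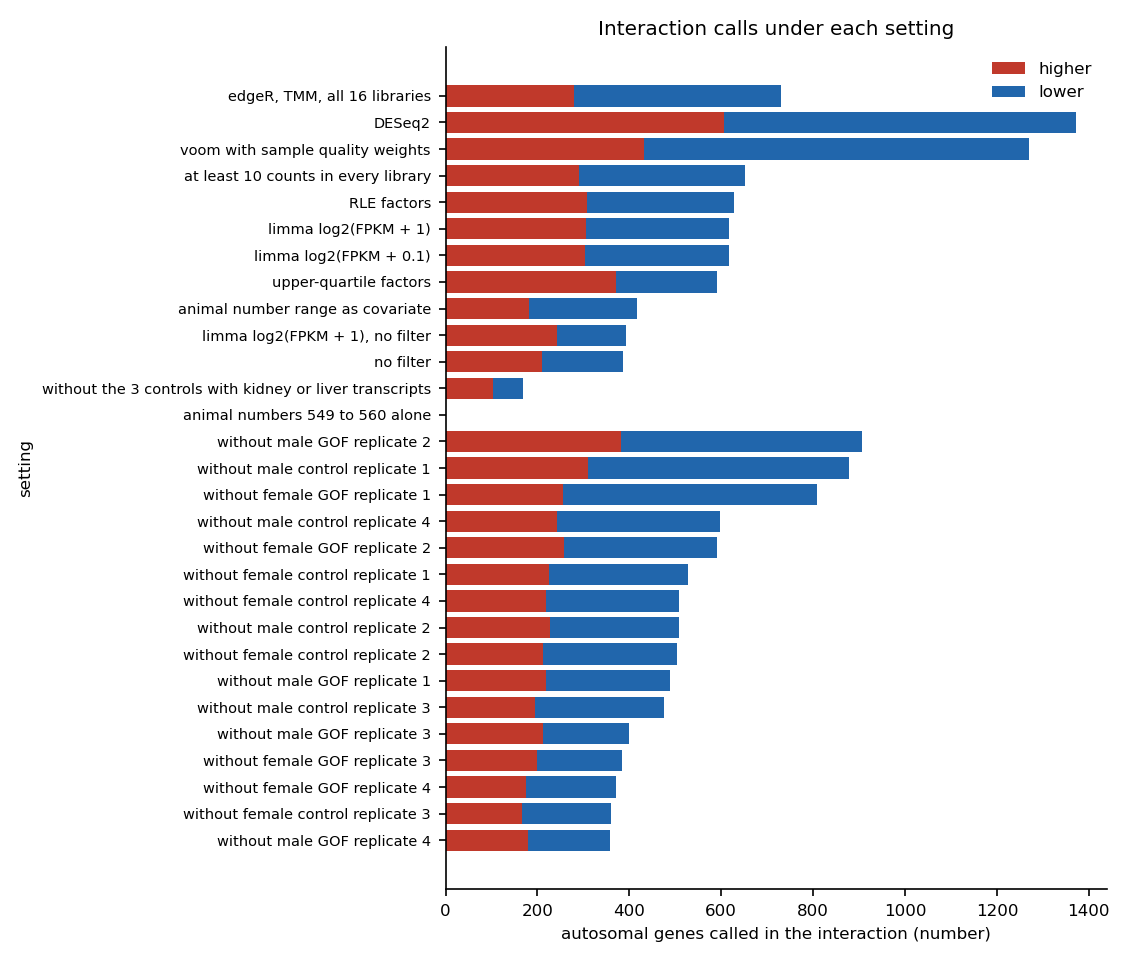
Bars give the number of autosomal genes called in the interaction under each setting, with red for a higher and blue for a lower effect in males; the top bar is the analysis used here, with 731. Counts ran from 1371 with DESeq2 to 168 without the 3 controls with kidney or liver transcripts, and from 359 to 906 when 1 library was left out, and the 7 libraries of 1 animal-number range gave 0.

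The number of interaction calls moved with the libraries more than the calls within a sex did. It was 370 without female GOF 4, 385 without female GOF 3, 361 without female control 3, 359 without male GOF 4, 400 without male GOF 3 and 476 without male control 3, and 906 without male GOF 2, the library with low Aldh1a1 and high lymphocyte genes. Without the 3 controls that held the most kidney or liver transcripts 168 genes passed, and 151 of them were among the 731. Of the genes described above, those that passed without these controls were Mgat4c, Cdh13, Per3, Peg10, Aldh1a1, Col6a1, Fam78a, Bach2os, Gpc5, Akr1c18, Cd1d1, Spp1, Ssu2, Cth, Lrrk2, Padi2, Gabrb1, Paqr5, Hdc, Cspg5, Flrt2, Fam155a, Ccnd3, Wnt4, Srd5a2, Tm7sf2 and Stard4. Aldh1a7, Drd4, Ccne1, Lgr4, Hsd17b1 and the mast cell proteases were among those that did not, with only 2 female and 3 male controls in the fit. The interaction there, beside that with all libraries, was 5.16 against 5.36 for Aldh1a7, -2.21 against -2.32 for Ccne1, 0.81 against 0.82 for Lgr4, 1.74 against 2.01 for Hsd17b1, and for the proteases -5.10 (Mcpt4) to -2.99 (Cpa3) against -5.30 (Tpsb2) to -3.42 (Cpa3). The sample titles carry animal numbers in 4 ranges, which the labels do not call batches; with the range as a covariate 417 genes passed, 378 of them among the 731, and female GOF 4 is alone in its range, so that term absorbs it. In the lowest range of 7 libraries, the only one with all 4 groups, which has 1 female control and 1 female GOF library, edgeR called 0 of 19154 autosomal genes, with 963 (5.03%) at an unadjusted p under 0.05, against 20.1% with all 16 libraries.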

How the data were processed

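RNA from frozen adrenal glands of 16 mice was sequenced as paired-end reads, per the labels' protocols. The authors deposited a table of raw read counts and a table of FPKM values (fragments per kilobase of transcript per 1000000 mapped fragments), per gene and library. The submitters' processing notes name Bowtie2 2.2.3, TopHat2 2.0.12, HTSeq 0.6.1 and DESeq 1.18.0, without roles. The genome build, annotation and strand setting are not given in the sources used here. Gene IDs (54809 of 54838) and FPKM-implied lengths (within 1% for 98.0% of genes) matched GENCODE M21, from which positions on GRCm38 were taken.

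Deposited counts were fitted with edgeR 4.0.16 in R 4.3.3 (TMM factors, filterByExpr by the 4 groups, 1 mean per group, robust quasi-likelihood F tests), with Benjamini-Hochberg adjustment over the 18214 genes tested, of which 17609 were autosomal. CPM used the same factors. A gene was called at an adjusted p under 0.05, and a group was at the floor where every library had 3 counts or fewer. Genes were named by rule among calls with a group mean of at least 1 CPM: the 12 highest and 12 lowest interactions with no group at the floor, the 5 highest and 5 lowest with one, the 5 smallest p in each direction, and, of genes called in opposite directions in the sexes, the 5 strongest of each orientation. Members of the lists were named in addition. Clone names were left out, and the text describes a part of the genes the rule named. Lists and members were chosen with earlier results of these data known.

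Alternatives were DESeq2 1.42.0, RLE and upper-quartile factors, no filter or a minimum of 10 counts in each library, limma 3.58.1 on log2(FPKM + 1) and log2(FPKM + 0.1) with a mean FPKM of at least 0.5 and unfiltered on log2(FPKM + 1), voom with quality weights per library, the animal number range as a covariate or 1 range alone, each library left out, the 3 controls with kidney or liver transcripts left out, an absolute log2 value of at least 1, and the sign on the linear scale. The titles give 1 animal number per library, and replicates were numbered in accession order, so the numbers do not pair libraries. No pair of libraries of a group had counts that agreed within sampling noise (chi-square per degree of freedom of at least 29.5). The fit was also tested on simulated counts for 18214 genes, with an interaction set in 200 of them and no other effect of GOF or sex. It recovered 39.3% of the 2-fold, 66.2% of the 4-fold and 80.9% of the 8-fold interactions, and 3.82% of its calls were false. Tables and plots were made with Python 3.11.15, numpy 2.4.6, pandas 2.3.3 and matplotlib 3.10.9.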

Additional observations from a re-analysis of the deposited data

Results flagged for a closer look

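In groups of 4 libraries, the highest and the lowest library were compared with the others for 28 genes and for 10 list sums. Of 152 groups 12 had a library set apart by more than the 95% critical value of Dixon's test, and chance alone sets apart about 1 in 20 groups. Male control 2 held 10641 CPM of the summed liver list and 88.3 CPM of the summed skeletal muscle list, and female control 1 held 1453 CPM of the summed kidney tubule list. Female control 1 was also the lowest female control for the summed DNA replication list, at 516 CPM, and male control 1 the highest male control for the shared steroidogenic list, at 52200 CPM. In male GOF 2 the lymphocyte list summed to 52.9 CPM, Tpsb2 stood at 0.685 CPM and Ccnd3 at 335 CPM, each the highest value of male GOF. In male GOF 1 the macrophage list summed to 1884 CPM and the lipid-laden macrophage list to 2038 CPM, also the highest of that group. Mcpt4 stood at 1.64 CPM in female control 2, and Ccnd3 at 861 CPM in female GOF 4, also the highest of their groups. The GOF effect itself differed between the sexes at 731 autosomal genes by the test of the interaction.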

How the results depend on the processing

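No paired analysis was possible because the sample titles carry no replicate numbers that the groups share. Against 731 calls in the interaction (280 higher, 451 lower), DESeq2 gave 1371 (607, 764), RLE factors 627 (307, 320), upper-quartile factors 590 (372, 218), no filter 386 (209, 177), at least 10 counts 651 (291, 360), log2(FPKM + 0.1) 616 (303, 313), log2(FPKM + 1) 617 (305, 312) and without a filter 393 (242, 151), voom with quality weights 1269 (431, 838), the animal-number range as a covariate 417 (181, 236), the 1 range with all groups alone 0 (963 of 19154, 5.03%, at an unadjusted p under 0.05), leaving out the 3 controls with kidney or liver transcripts 168 (103, 65), and an absolute log2 value of at least 1 364 (181, 183). Leaving out 1 library gave 359 to 906 (166 to 382 higher, 179 to 569 lower). Calls in females were 2999 at an absolute log2 of at least 1, 24 in that range alone, 4364 without the 3 controls and 5489 to 7196 without 1 library. Calls in males were 3228 at that size, 1315 in that range alone and 4987 to 6431 without 1 library. List members called were 62 by DESeq2, 0 in that range alone, 22 with log2(FPKM + 1) without a filter, 23 with no filter, 10 without the 3 controls and 20 to 51 without 1 library. Over the interactions of 79 genes described, 1040 values without 1 library kept their call, 219 lost it, 5 gained it and 0 reversed, and under the other settings 687, 211, 11 and 0 did. The cause of these shifts was not tested. Precision is limited by 4 mice per group and, for genes near the floor, by counts of 3 or fewer.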
